A study of Mus musculus with 20 samples.

Results

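The Sfmbt2 intron of mouse chromosome 2 carries a long array of repeated microRNA hairpins, and 9 promoter probes of the sperm methylation table start within it. Members were all probes of the table whose symbol is Mir followed by a digit and which start in a window of chromosome 2 around Sfmbt2 (mm10). Their starts run from 10472433 (Mir669a-3) to 10515604 (Mir669i). They were 9 of 981 microRNA probes and of 22480 promoters. Neighbouring probes overlap each other, so the 9 probes form 5 separate regions that cover 15365 bases, and at most 6 of the 9 can be chosen without a shared base.

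MicroRNAs are short RNAs that are cut from a hairpin in a longer transcript and that lower the output of messenger RNAs carrying a matching site. Sfmbt2 encodes a Polycomb-group protein, is imprinted with expression from the paternal copy in extra-embryonic tissue, and hosts in one of its introns a rodent-specific array of microRNAs of the Mir297, Mir466, Mir467 and Mir669 families that is best known from the placenta. Methylation of CpG sites is laid down in the male germ line before birth, and the sperm of an exposed son carries the mark that is measured here.

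Sperm DNA came from 20 males of 8 weeks, 5 in each of 4 groups. Each of the strains C57BL/6J and FVB/N gave a control and a DEHP group. The mothers of the DEHP groups were given the plasticizer di(2-ethylhexyl) phthalate (DEHP) at 300 mg/kg/day by mouth in corn oil from day 9 to day 19 of pregnancy, and those of the control groups the corn oil alone. The question asked of each probe is whether its methylation differs with prenatal DEHP, whether it differs between the strains, and whether the change depends on the strain. Methylated fragments were captured by their methylated CpG sites and sequenced (MBD-sequencing), so a level is a number of normalized read-pairs over a probe of 2200 bp and depends on both the methylation and the number of CG sites. Only group values were used here, so the depths of single libraries are unknown. The paper reports more read-pairs on average for DEHP than for control libraries. Each value is the authors' mean of 5 males, given with the authors' SD. A log2 ratio is that of the means plus 1 normalized read-pair, and its standard error (SE) was approximated from the SDs. No test was run, since an exact test needs the values of single males, and groups are called separated only where the means and SDs leave no room for an overlap of males. The DEHP males of both strains were sequenced as 1 submission with reads of 51 bases and the control males as another with reads of 49 bases. Treatment, submission, read length and average depth therefore cannot be told apart.

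The sum of the authors' means over all promoters was 226268 for control and 153283 for DEHP males of C57BL/6J, and 141091.6 for control and 150346 for DEHP males of FVB/N. The sperm label was checked on imprinted loci. The probe of the paternally methylated H19 had group means between 17.5 and 25.3, at or above the percentile 90.1 of all promoters in each group. The probe of Rasgrf1, a locus methylated on the same parental copy, had means between 2.4 and 3.7, at percentiles from 28.3 to 56.7. Among 7 maternally methylated promoters, Peg3, Snrpn, Mest, Plagl1, Kcnq1ot1 and Peg10 had means between 0.5 and 8.1, and Nnat had means between 9.5 and 26.5, at percentiles from 75.9 to 92.5. The levels thus did not sort by parental copy, and this check does not decide the label. Whether each probe covers the imprinted region of its locus was not examined. The study's methods describe a check of the sperm under the microscope, with preparations that held somatic cells left out.

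All 9 probes lie in 1 intron of Sfmbt2, from 10461473 to 10523944, which is intron 10 or 11 depending on the coding transcript, and all are on the plus strand like the host gene. None of the probes overlaps an exon of another kind of gene. The intron is 62472 bp long and carries 119 annotated microRNA genes, of which 34 are touched by a member probe. Each member probe starts 2000 bp before its own hairpin, and 18.5% to 28.9% of its bases are themselves hairpins of the array. These probes are therefore promoters by the definition of the table only, namely 2000 bp before and 200 bp after the start of a microRNA gene, and hold inner repeats of the array.

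The first region, chr2:10472433-10478997, holds the probes of Mir669a-3, Mir669k, Mir669g, Mir669j and Mir467a-2, with 59 distinct CG sites over 6565 bp. Mir467b follows at chr2:10479248-10481447 after a gap of 250 bases. The other 3 regions are single probes further along, namely Mir467d at chr2:10505630-10507829, Mir669a-2 at chr2:10508164-10510363 and Mir669i at chr2:10515604-10517803. The CG counts of the 9 probes add up to 178, but only 140 of these sites are distinct. Mir669g and Mir669j share 1440 bases and 14 CG sites, Mir669a-3 and Mir669k share 1333 bases and 11 CG sites, and Mir669j and Mir467a-2 share 1312 bases and 11 CG sites. A read-pair from such a stretch counts for both probes.

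**Figure D1:**
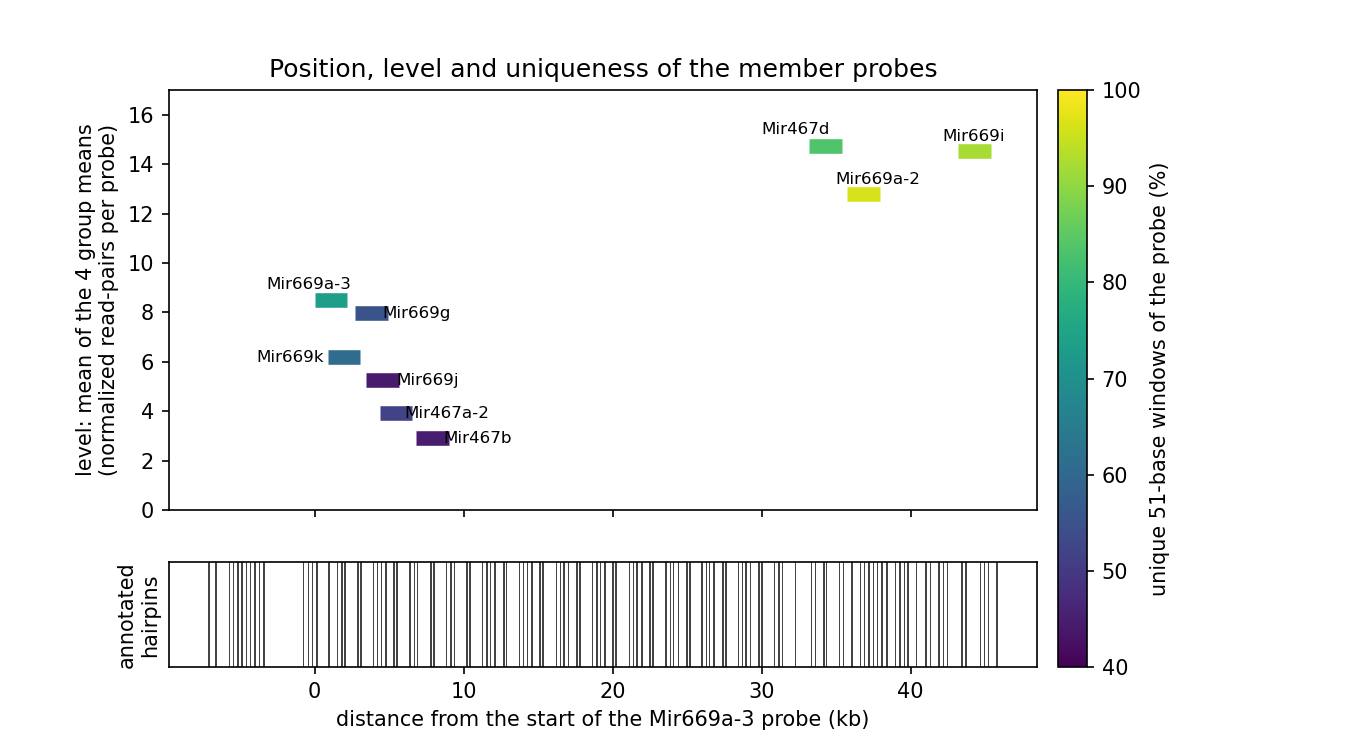
Upper panel, the 9 member probes along the intron, with the distance from the start of the Mir669a-3 probe in kb on the x axis and the mean of the 4 group means, in normalized read-pairs, on the y axis, coloured by the share of 51-base windows that are unique in the genome. Lower panel, the 119 annotated hairpins of the intron as vertical bars. The 3 single probes beyond 33 kb have means from 12.8 to 14.8, and the 6 probes near the start have means from 2.93 to 8.5.

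The array repeats with a period that the numbered Mir467a hairpins show, whose spacing has a median of 2462 bp and a range from 2413 to 4880 bp. To show what the probes share, the 100 bases with the most CG sites outside annotated hairpins were taken from GRCm38.p6, the assembly of mm10, for the plus strand, with CG sites in capitals. The following set is the stretch of the Mir467b probe (chr2:10480549-10480648) with its counterparts in the probes of Mir467a-2 (chr2:10478094-10478193) and Mir669g (chr2:10475684-10475783).
Mir467b: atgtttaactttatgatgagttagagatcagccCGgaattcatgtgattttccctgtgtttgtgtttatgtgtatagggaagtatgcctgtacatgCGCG
Mir467a-2: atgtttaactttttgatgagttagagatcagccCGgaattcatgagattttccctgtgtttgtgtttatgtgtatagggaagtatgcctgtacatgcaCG
Mir669g: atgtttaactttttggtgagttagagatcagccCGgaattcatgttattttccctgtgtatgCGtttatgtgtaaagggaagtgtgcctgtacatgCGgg

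The Mir467a-2 copy differs from that of Mir467b at 3 of 100 bases and the Mir669g copy at 8. The copies hold 3, 2 and 3 CG sites in the order shown. The Mir467b stretch has 7 copies with at most 10 mismatches elsewhere in the intron, the closest with 0 mismatches, and 0 of its 50 windows of 51 bases are unique in the genome.

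A second set shows a repeat that even a probe with a high level holds. It is the stretch of Mir467d (chr2:10505808-10505907) with its counterpart in Mir467a-2 (chr2:10478888-10478987).
Mir467d: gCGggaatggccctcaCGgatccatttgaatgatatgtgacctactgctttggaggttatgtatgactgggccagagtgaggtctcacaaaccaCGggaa
Mir467a-2: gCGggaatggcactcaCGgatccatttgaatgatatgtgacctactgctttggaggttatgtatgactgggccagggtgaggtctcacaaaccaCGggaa

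This pair differs at 2 bases and keeps all 3 CG sites. The Mir467d stretch has 11 near copies in the intron, and 25 of its 50 windows are unique. The last set holds the densest stretches of Mir669i (chr2:10517232-10517331), the member with the highest group mean, and of Mir669k (chr2:10473504-10473603), the member whose groups were separated.
Mir669i: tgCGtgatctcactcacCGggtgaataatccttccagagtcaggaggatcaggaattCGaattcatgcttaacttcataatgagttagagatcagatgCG
Mir669k: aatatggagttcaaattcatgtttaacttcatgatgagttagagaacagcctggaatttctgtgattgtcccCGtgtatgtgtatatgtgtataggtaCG

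These stretches hold 4 and 2 CG sites, and all 50 windows of each are unique.

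The authors discarded read-pairs with several positions in the genome and those without a CpG in their insert. A window is called unique where its exact sequence occurs once in the genome, so copies with mismatches were not counted. Of all 51-base windows of a probe, 44.4% (Mir669j) to 96.3% (Mir669a-2) were unique among the 9 members, with a median of 60.9%, compared with a median of 99.5% over all promoters. For pairs of windows 150 bases apart, the median share with at least 1 unique end was 80.2% in the members and 100% over all promoters. Which reads the aligner placed was not examined. With windows of 49 bases, the length of the control reads, the range was 42.7% to 96.0%. The repeated windows were copies of the same array. In 8 of 9 probes every repeated window had all its copies inside the intron, and in Mir467a-2 this held for 99.6%. Of the 140 CG sites, 117 lie in at least 1 unique window. Among the probes, the share of CG sites in a unique window ran from 66.7% in Mir669k and Mir467a-2 to 100% in Mir669a-2 and Mir669i. The members were poor in CG sites, with 15 to 23 per probe and a median of 20, where all promoters had a median of 45 and the other 972 microRNA promoters a median of 30. They were also AT-rich, with a GC share between 38.9% and 41.9%, against a median of 48.0% over all promoters.

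The levels of the cluster were moderate. The median of the authors' means over the 9 probes was 7.3 normalized read-pairs in control and 8.4 in DEHP males of C57BL/6J, and 3.7 in control and 11.6 in DEHP males of FVB/N, while the medians over all promoters were 5, 5.3, 3 and 4.9. Counted in 1 value per region, the cluster medians were 9.7, 14.7, 7.6 and 19.2. The other microRNA promoters had medians of 18.2, 11.6, 10.8 and 11.8 in the same order, and the microRNA promoters of the imprinted Dlk1-Dio3 region on chromosome 12 had 45.5, 25.4, 34.7 and 29.1.

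Per CG site of the probe, the cluster had a median of 0.37, 0.56, 0.185 and 0.644 normalized read-pairs in the same order of groups. The 2589 promoters with as many CG sites as the members, 15 to 23, had 0.582, 0.53, 0.3 and 0.509. Per CG site the cluster lay below these promoters in both control groups and above them in both DEHP groups. By the level of the whole probe, the median of the 9 overlapping probes was above them in FVB/N DEHP only, since their medians were 10.7, 9.7, 5.6 and 9.5. With 1 value per region (9.7, 14.7, 7.6 and 19.2) the cluster was above them in all groups but C57BL/6J controls. The values per CG site were taken over the 9 overlapping probes only. These differences were not tested.

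Within the cluster, the 3 single probes at the far end were the highest. Mir669i had authors' means of 12.2 (SD 4.6) and 15.3 (SD 2.7) in control and DEHP males of C57BL/6J, and of 8.4 (SD 5.7) and 22.3 (SD 7.9) in those of FVB/N. Mir467d had 12.3 (SD 4.3), 17.4 (SD 4.1), 10 (SD 3.5) and 19.3 (SD 2.6) in the same order. Mir669a-2 had 9.7 (SD 7.1), 14.7 (SD 2.8), 7.6 (SD 6.7) and 19.2 (SD 3.6), and its SD amounted to 0.732 of the mean in C57BL/6J controls and to 0.882 in FVB/N controls. In each of the 4 groups the means of these 3 probes were above those of the other 6.

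In the first region, Mir669a-3 and Mir669g had the highest means over the 4 groups together, 8.5 and 7.98, but not in each group. Mir669a-3 had means of 7.3 (SD 3.2), 11.9 (SD 3.6), 3.2 (SD 3.0) and 11.6 (SD 1.9), again with both C57BL/6J groups first, and Mir669g had 8.5 (SD 3.6), 6.3 (SD 1.1), 5.3 (SD 1.1) and 11.8 (SD 2.5). Mir669k had 4.5 (SD 1.3), 8.4 (SD 3.0), 2.2 (SD 1.4) and 9.7 (SD 2.2). Mir669j followed with 4.0 (SD 1.9), 4.8 (SD 2.0), 3.7 (SD 2.3) and 8.5 (SD 3.3). The lowest means over the 4 groups together were those of Mir467a-2, with 2.6 (SD 1.9), 5.3 (SD 3.2), 1.8 (SD 1.3) and 6.0 (SD 2.7), and of Mir467b, with 2.4 (SD 1.2), 3.3 (SD 2.1), 1.8 (SD 1.6) and 4.2 (SD 2.5). In DEHP males of C57BL/6J, Mir669j was below Mir467a-2. Mir669i lay above Mir467b by more than the larger SD in each of the 4 groups. Among Mir669i, Mir467d and Mir669a-2, and between Mir467a-2 and Mir467b, the means differed by less than the larger SD in each group.

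**Figure D2:**
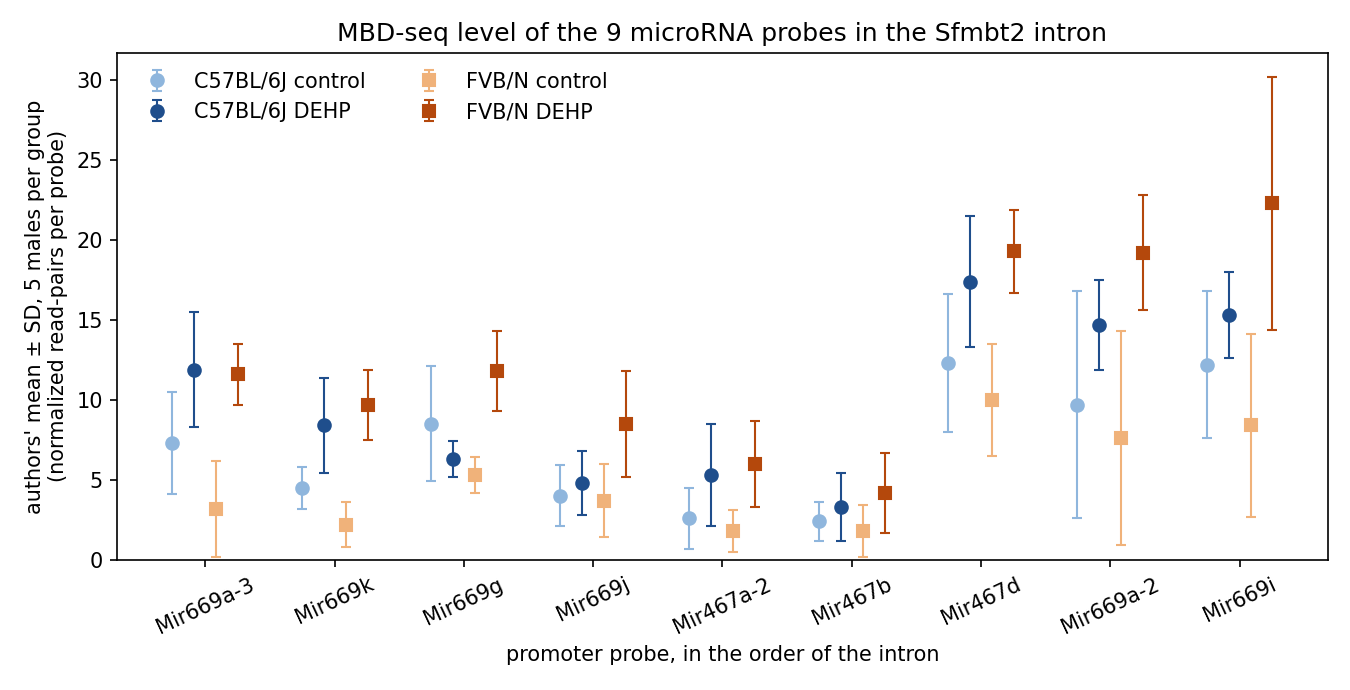
Authors' mean and SD (bars, 5 males per group) of normalized read-pairs for each member probe, in the order of the intron on the x axis, with circles for C57BL/6J, squares for FVB/N, light colours for controls and dark colours for DEHP. FVB/N DEHP is the highest group in 8 of 9 probes, and the single probes Mir467d, Mir669a-2 and Mir669i are the highest members.

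The level of a probe and its uniqueness went together. Across the 9 probes, Pearson's r between the share of unique 51-base windows and the authors' mean was 0.858 in control and 0.951 in DEHP males of C57BL/6J, and 0.796 in control and 0.930 in DEHP males of FVB/N, and Spearman's rho was 0.833, 0.917, 0.678 and 0.85. Over the 6 probes without shared bases r was 0.814, 0.933, 0.779 and 0.929. The GC share of the probe followed the level as closely, with r of 0.905, 0.855, 0.869 and 0.946 over the 9 probes, and the number of all CG sites did not, with r between -0.271 and 0.14. The number of CG sites in a unique window had r of 0.786, 0.566, 0.799 and 0.725. Position along the intron had r of 0.794, 0.801, 0.875 and 0.882. The points share reads, libraries and neighbouring sequence, so these values are a description, and the part of each feature in the level was not tested. The log2 ratios had a weaker relation to uniqueness, with r of 0.188 for DEHP against control in C57BL/6J and 0.186 in FVB/N over the 9 probes, and of 0.494 and 0.423 over the 6 probes without shared bases.

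**Figure D3:**
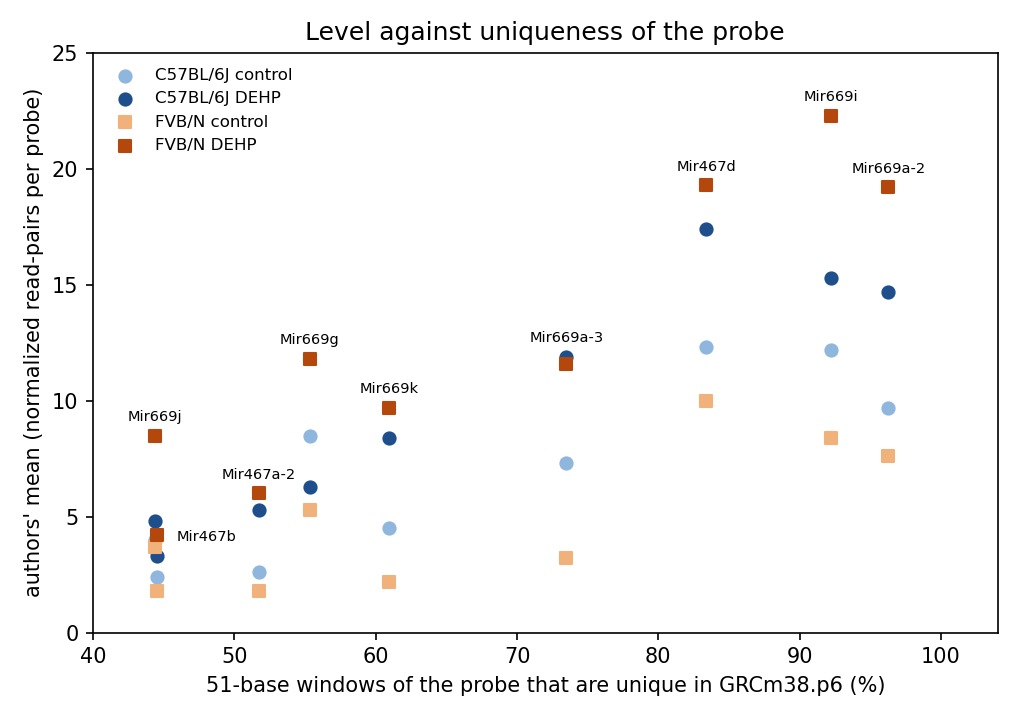
Share of 51-base windows unique in GRCm38.p6 (%) on the x axis against the authors' mean (normalized read-pairs) on the y axis, with 4 points per probe for the 4 groups. Mir467b and Mir669j, near 44%, have the fewest unique windows, and Mir467d, Mir669i and Mir669a-2, at 83.4% to 96.3%, have the highest levels in each group.

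With prenatal DEHP, the C57BL/6J means of 8 of 9 probes were above those of controls. Over all promoters 43.5% were above. The median log2 ratio of the cluster was 0.47, and that of all promoters was -0.10, so the cluster lay 0.57 above it. The log2 ratio was 0.81 (SE 0.47) for Mir467a-2, 0.77 (SE 0.26) for Mir669k, 0.64 (SE 0.31) for Mir669a-3 and 0.55 (SE 0.44) for Mir669a-2. It was 0.47 (SE 0.25) for Mir467d, 0.34 (SE 0.39) for Mir467b, 0.30 (SE 0.25) for Mir669i and 0.21 (SE 0.33) for Mir669j. Mir669g was the exception with -0.38 (SE 0.26), although it shares 65.5% of its bases with Mir669j. In 3 of 9 probes the difference of the means was above the larger of both SDs, namely Mir669k, Mir669a-3 and Mir467d, where 11.6% of all promoters had such a difference in this direction. Mir669k and Mir669a-3 overlap in the first region. A ratio above 1 was found in 0 of 9 probes and in 5.15% of all promoters as deposited, and in 4 of 9 probes and 14.7% of all promoters with group means scaled to equal sums over all promoters. No probe was separated in C57BL/6J, while 0.249% of all promoters had DEHP males above and 1.42% below.

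In FVB/N the DEHP means were above the control means in 9 of 9 probes, beside 69.1% of all promoters. The median log2 ratio of the cluster was 1.23, compared with 0.35 for all promoters, a distance of 0.88. The ratio was above 1 in 7 of 9 probes and in 14.5% of all promoters as deposited, in 5 of 9 and 13.6% with group means scaled to equal sums, and in 2 of 9 and 3.86% with group means scaled to equal medians. These counts hold overlapping probes. By region, as deposited, the median was 1.32 in the first region, 0.89 in Mir467b, 0.88 in Mir467d, 1.23 in Mir669a-2 and 1.31 in Mir669i. Mir669k had the largest value, 1.74 (SE 0.31), followed by Mir669a-3 with 1.58 (SE 0.47), Mir467a-2 with 1.32 (SE 0.39), Mir669i with 1.31 (SE 0.45) and Mir669a-2 with 1.23 (SE 0.52). Mir669g had 1.02 (SE 0.17), Mir669j 1.02 (SE 0.39), Mir467b 0.89 (SE 0.48) and Mir467d 0.88 (SE 0.22). The difference exceeded the larger SD in 8 of 9 probes, all but Mir467b, against 23.7% of all promoters with DEHP above. Of these probes, 5 form the first region and share bases.

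Mir669k was the only probe separated in FVB/N, where 0.774% of all promoters were separated with DEHP above. With 5 males, none can lie further than 1.79 SD from the mean of its group, and by this bound no FVB/N control was above 4.84 and no FVB/N DEHP male was below 5.63 normalized read-pairs. This takes the deposited SD as a sample SD. With a bound of 2 SD, which also holds for a population SD, 0 of 9 probes were separated. Overlap that these bounds allow need not be present, so the count is a lower limit.

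By region, the median log2 ratio was above 0 in 5 of 5 regions in both strains. In C57BL/6J it ran from 0.30 (Mir669i) to 0.64 (the first region) and in FVB/N from 0.88 (Mir467d) to 1.32 (the first region). With DEHP above control in both strains were 8 of 9 probes, beside 37.3% of all promoters. The direction was kept when the group means were scaled to equal sums over all promoters (9 of 9 probes above 0 in both strains). It was also kept when they were scaled to equal medians (8 of 9 in C57BL/6J and 9 of 9 in FVB/N). The background moved as well. On equal sums, 68.6% (C57BL/6J) and 66.6% (FVB/N) of all promoters were above 0. On equal medians these shares were 41% and 39.8%, and as deposited they were 43.5% and 69.1%. The size of the cluster's ratios was not kept. The cluster median in C57BL/6J was 0.99 on equal sums and 0.39 on equal medians, and in FVB/N it was 1.16 and 0.59. These scalings moved the median of all promoters from -0.10 to 0.33 and -0.16 in C57BL/6J, and from 0.35 to 0.29 and -0.18 in FVB/N.

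**Figure D4:**
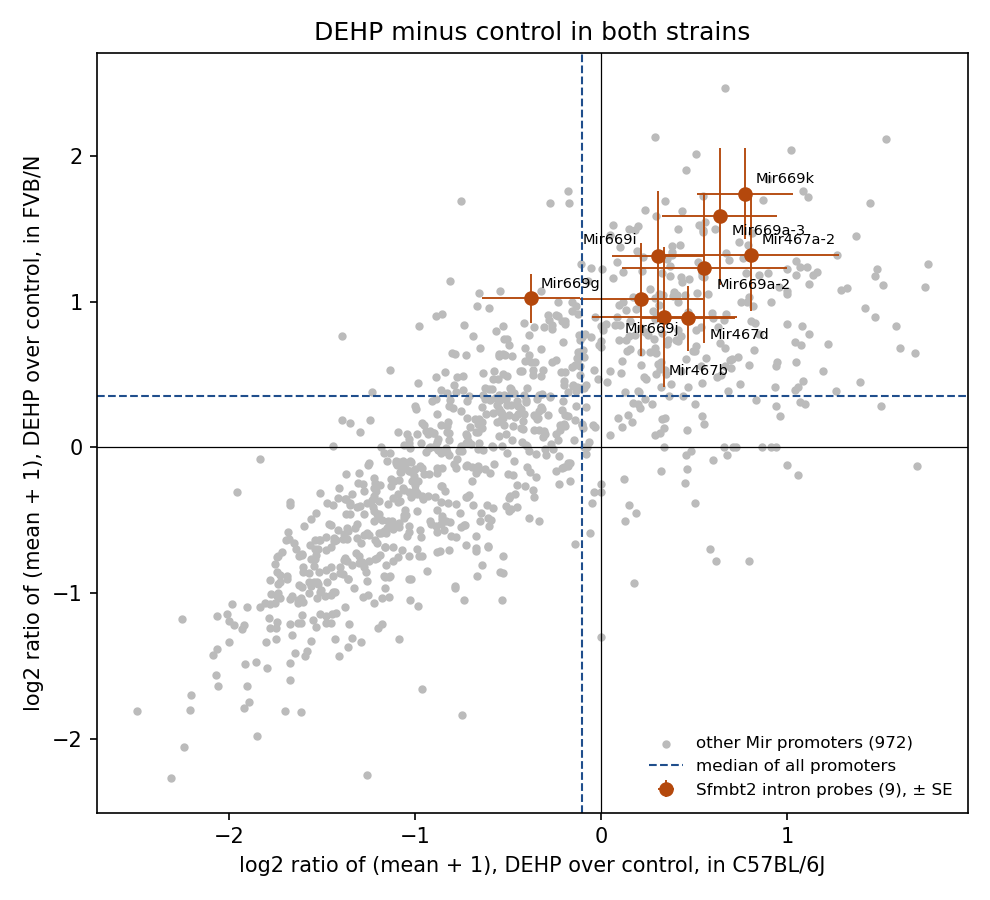
Log2 ratio of DEHP over control in C57BL/6J (x axis) against that in FVB/N (y axis) for the 9 member probes (orange, with bars of 1 SE in each direction) and the 972 other microRNA promoters (grey). Dashed lines are the medians of all promoters at -0.10 and 0.35, and all 9 members lie above the horizontal line while 8 lie right of the vertical line.

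The other microRNA promoters had lower ratios. Their median was -0.59 in C57BL/6J, with 26.5% of the 972 above 0, and 0.03 in FVB/N, with 51.4% above 0. Dlk1-Dio3 microRNAs, which form another large array at an imprinted locus, had medians of -0.77 and -0.49. Among the 180 other microRNA promoters with 15 to 23 CG sites, the medians were -0.32 and 0.42, with 30.0% and 76.1% above 0, and among all 2589 promoters of that CG content they were -0.12 and 0.55, with 41.9% and 82.5% above 0. The 9 probes are not independent of each other, and the difference between the lists was not tested.

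The table also lists probes of the same families at other places, and these need care. It puts 10 probes of Mir466, Mir467 and Mir669 symbols outside the window, but the GENCODE annotation has a hairpin of the same symbol in the Sfmbt2 intron for 8 of the 10, and in 9 of the 10 no annotated microRNA gene overlaps the probe. Their values are therefore those of the listed places and are not values of the array. With DEHP, 5 of 10 were above 0 in C57BL/6J and 7 of 10 in FVB/N. Mir466i, Mir467c, Mir467f, Mir669e and Mir669h, with 5 to 20 CG sites, were above 0 in both strains, with log2 ratios from 0.33 to 1.27 in C57BL/6J and from 0.66 to 1.34 in FVB/N. Mir466d, Mir466n and Mir466p, with 35 to 43 CG sites, were below 0 in both, with ratios from -1.26 to -1.02 in C57BL/6J and from -2.25 to -0.33 in FVB/N. Mir466h, with 21 CG sites, and Mir466f-2, with 113, were below 0 in C57BL/6J (-0.12 and -0.57) and above 0 in FVB/N (0.65 and 0.34). Of the 71 hairpins of the intron that carry a Mir symbol, 9 have their probe in the intron, 8 have it elsewhere and 54 have no probe of that symbol in the table.

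Between the strains, C57BL/6J control means were above FVB/N control means in 9 of 9 probes. This was the direction of 82.1% of all promoters, and the cluster median of 0.36 was below the median of 0.54 over all promoters. The log2 ratio was 0.98 (SE 0.52) for Mir669a-3, 0.78 (SE 0.32) for Mir669k and 0.59 (SE 0.27) for Mir669g, and lay between 0.09 and 0.49 in the other 6 probes. By region the median ran from 0.27 (Mir467d) to 0.59 (the first region). No member was separated (1.06% of all promoters with C57BL/6J above), and in 2 of 9 the difference was above the larger SD (29.7% of all promoters in this direction). On other scales the direction turned in most probes, with 3 of 9 above 0 on equal sums and 2 of 9 on equal medians. Of all promoters, 50% and 46.5% were above 0 on these scales. Mir669a-3 and Mir669k stayed above 0 on all 3 scales.

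With DEHP, 8 of 9 means were lower in C57BL/6J than in FVB/N, beside 44.2% of all promoters. The cluster median was -0.27 and the median of all promoters 0.04. Mir669g had the largest difference with -0.81 (SE 0.16), followed by Mir669j with -0.71 (SE 0.32), Mir669i with -0.52 (SE 0.24) and Mir669a-2 with -0.36 (SE 0.16). Mir669a-3, with 0.03 (SE 0.20), was the only probe above 0. By region the median ran from -0.52 (Mir669i) to -0.14 (Mir467d). The difference exceeded the larger SD in 3 of 9 probes, Mir669g, Mir669j and Mir669a-2, compared with 4.15% of all promoters in this direction, and no member was separated (0.0311% of all promoters with C57BL/6J below). Mir669g and Mir669j overlap in the first region. C57BL/6J above FVB/N in controls and below it with DEHP was the order in 8 of 9 probes and in 36.4% of all promoters, as deposited. With DEHP, 8 of 9 probes were below 0 on equal sums and 9 of 9 on equal medians, where 51.7% and 44.1% of all promoters were above 0. In controls 3 of 9 and 2 of 9 probes were above 0 on these scales, so the turn of the order was not kept in most probes. Both strains of a treatment were in the same submission, so the comparison of the strains with DEHP does not cross batches.

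**Figure D5:**
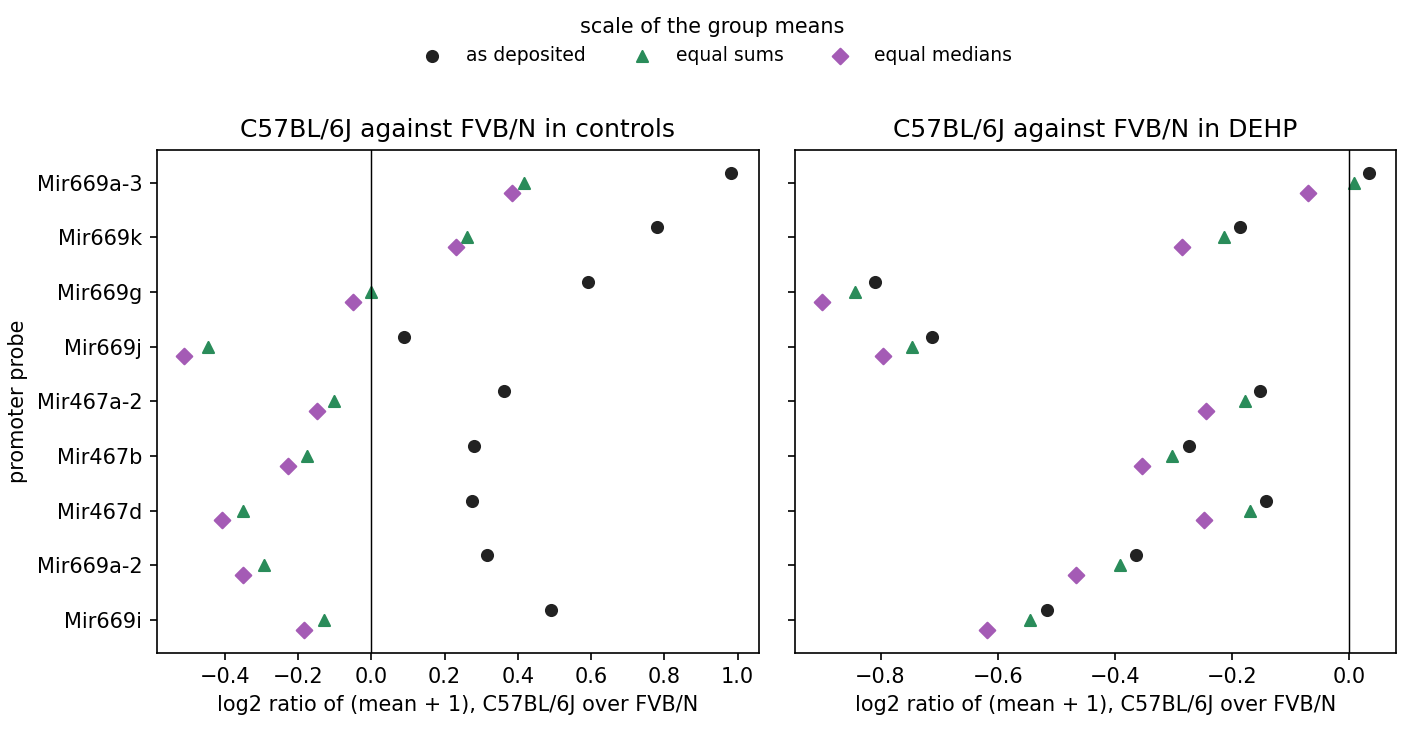
Log2 ratio of C57BL/6J over FVB/N for each member probe in controls (left) and with DEHP (right), from the group means as deposited (circles), scaled to equal sums (triangles) and scaled to equal medians (diamonds). In controls 9 of 9 circles lie above 0 and 7 of 9 diamonds below it, and with DEHP 8 of 9 circles lie below 0.

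Variants known between the strains were listed for 4 of the 9 probes, namely 3 in Mir467b, 2 each in Mir669g and Mir669j and 1 in Mir467a-2. The remaining 5 had 0, which is 55.6% of the members beside 53.9% of all promoters. With DEHP, the log2 ratio of C57BL/6J over FVB/N in the probes with variants was -0.81 in Mir669g, -0.71 in Mir669j, -0.27 in Mir467b and -0.15 in Mir467a-2. In the 5 probes with 0 variants it ran from -0.52 in Mir669i to 0.03 in Mir669a-3. Mir669g and Mir669j share 1440 bases, and a variant in that stretch counts for both. A relation of variants, or of the number of array copies in FVB/N, to the strain difference was not tested.

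The change with DEHP was smaller in C57BL/6J than in FVB/N in 9 of 9 probes, beside 77.1% of all promoters. The median difference of the log2 ratios was -0.80 in the cluster, -0.68 with 1 value per region and -0.50 over all promoters. The largest differences were those of Mir669g with -1.40 (SE 0.31), Mir669i with -1.01 (SE 0.51), Mir669k with -0.97 (SE 0.40) and Mir669a-3 with -0.95 (SE 0.56), and the smallest that of Mir467d with -0.42 (SE 0.34). The difference was below -1 in 2 of 9 probes and in 18.3% of all promoters. In Mir669g the ratios had opposite signs in the strains, -0.38 and 1.02. The median was -0.30 on equal sums and -0.29 on equal medians, where 8 of 9 probes were below 0 and 0 of 9 below -1, and it was -0.12 relative to promoters with as many CG sites. Of all promoters, 51.1% on equal sums and 49% on equal medians were above 0, and 3.25% and 3.91% were below -1.

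The promoter probe of the host gene Sfmbt2, at chr2:10368451-10370650, was low in all groups. It holds 37 CG sites and had means of 2.8 (SD 1.4) in control and 1.2 (SD 1.6) in DEHP males of C57BL/6J, and of 1.3 (SD 1.0) in control and 2.2 (SD 1.2) in DEHP males of FVB/N. All 4 means were at or below 0.0757 normalized read-pairs per CG site, and the lowest member, Mir467b, had 0.0818 to 0.191. The log2 ratio of DEHP over control was -0.79 (SE 0.53) in C57BL/6J and 0.48 (SE 0.37) in FVB/N, and no comparison of the groups was separated. Of the windows of the Sfmbt2 probe, 97.2% were unique. The coding transcripts that contain the intron of the members start at 10372436 and 10372450, beyond the end of this probe.

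The 12 promoters of other genes within 1 Mb, Sfmbt2 among them, had a median log2 ratio of DEHP over control of -0.31 in C57BL/6J, with 5 of 12 above 0, and 0.50 in FVB/N, with 11 of 12 above 0. In this neighbourhood the largest FVB/N ratio was 1.2, in Itih2, a gene of the inter-alpha-trypsin inhibitor family whose probe holds 17 CG sites.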

How the data were processed

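MBD-sequencing was performed on sperm DNA of 20 males. Alignment to mm10 was done by the authors with Bowtie 0.12.7, followed by removal of pairs that were discordant, ambiguous or without CpG, counting per promoter probe and normalization with edgeR. The signal used here is the group mean and SD of normalized read-pairs that the authors deposited with 1 decimal, without depths or values per library. Of the deposited table, 9 columns with fold changes, p-values and FDR of the authors' comparisons and 6 columns of expression from another dataset were not used.

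The fits planned for values per library were replaced by log2 ratios of means (pseudocount 1), SEs from the SDs, and a separation bound of 1.79 SD widened by 0.05 for rounding, tested on simulated data. Groups came from the labels. Window uniqueness, GC share and hairpins came from GRCm38.p6 and its GENCODE annotation, with every window read in the members and every 10th base elsewhere. Overlapping probes were merged at 1 shared base. Members and lists were chosen with earlier results of these data known, and all 9 members met the rule for named genes (highest and lowest of each region, the 3 largest ratios per comparison, or separated). Alternatives were pseudocounts of 0.1 and 5, equal sums or medians, a minimum mean of 1, a bound of 2 SD, and non-overlapping, merged or at least 50% unique probes. Scripts ran in Python 3.11.15 (pandas 2.3.3, numpy 2.4.6, numba 0.67.0, matplotlib 3.10.9).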

Additional observations from a re-analysis of the deposited data

How the results depend on the processing

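No paired analysis was possible because only group means and SDs were used, and for the same reason leaving out each library, DESeq2 size factors and TMM were not run. Of 77 recomputed values, 65 kept their sign and stayed within the spread between males or within 1.5 times the count, 9 moved further and 3 changed sign. The spread is wide, and it held the fall of the FVB/N median of DEHP over control from 1.23 to 0.59 on equal medians. Relative to promoters with as many CG sites the C57BL/6J median of DEHP over control was 0.59 and the FVB/N median 0.68, and with a pseudocount of 5 they were 0.37 and 0.71. The median of C57BL/6J over FVB/N in controls turned from 0.36 to -0.129 on equal sums, to -0.183 on equal medians and to -0.356 relative to promoters with as many CG sites, a setting added after the data were seen. The 1 probe separated in FVB/N became 0 on equal medians, with the bound of 2 SD and among non-overlapping probes, since Mir669k overlaps Mir669a-3. The median level was higher with fewer overlapping probes, at 13.3 (non-overlapping) and 14.7 (per region) against 8.4 in C57BL/6J DEHP, at 6.45 and 7.6 against 3.7 in FVB/N controls, and at 15.5 and 19.2 against 11.6 in FVB/N DEHP. The depth per library is unknown, and at means under 5 normalized read-pairs the SDs reached 0.938 of the mean.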
